A study of Mus musculus with 8 samples.

Results

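Nuclear receptor coregulators are described here through 8 genes named for the family, *Ncoa1* to *Ncoa7* and *Ncor1*, out of 50615 genes in the deposited table. They were chosen by name, as the measured relatives of *Ncoa6*, and the question was whether any of them differed when *Ncoa6* was lost or when the macrophages were stimulated. The RNA came from macrophages derived from bone marrow (BMDMs) of C57BL/6 mice, cultured for 6 days with 20 ng/ml M-CSF. *Ncoa6*-sufficient BMDMs, labelled WT, came from *Ncoa6* fl/fl mice without Cre. Mice of the genotype *Ncoa6* fl/fl LysM CRE gave the *Ncoa6*-KO BMDMs. In the knockout mice, Cre is made from the lysozyme 2 locus, which is active in myeloid cells, and all groups carry the floxed allele. For each genotype, 1 set of cultures stayed in medium alone, and another received LPS, a bacterial cell wall product, for 4 h (100 ng/ml), followed by 2 h of monosodium urate (MSU) crystals (200 µg/ml). There were 4 groups, of 2 libraries each. The paper states that the BMDMs came from different mice, with n = 2 per group. It does not say whether both cultures of a genotype came from the same mice. The labels do not say that same-numbered libraries share a mouse, and p-values measure the spread between these libraries.

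Nuclear receptors are transcription factors that bind small molecules such as steroids, retinoids and oxysterols, and they act on genes through partner proteins. Coactivators are recruited when a ligand is bound and bring histone-modifying enzymes and the Mediator complex, while corepressors such as the NCoR complex bring histone deacetylase 3 and hold target genes down. In macrophages, NCoR also sits at inflammatory genes before stimulation, and its removal is a step in the response to LPS. The names of the family hide different jobs, since NCOA4 is best known as the receptor that carries ferritin to the lysosome and NCOA7 as a TLDc protein that acts on the vesicle proton pump.

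The libraries held between 25281955 and 33673552 expected counts (read counts per gene as estimated by RSEM), and all 8 genes passed the filter of at least 10 counts over the 8 libraries, as did 17625 genes in all. Levels are given as normalized counts, scaled by TMM factors to the mean effective library size of 29332189. All 8 macrophage markers were present, with summed levels between 248635 and 543870 normalized counts, while those of T and NK cells summed to at most 4.16, and *Cd3g*, *Trac* and *Ncr1* were at 0 in every library. Markers of neutrophils summed to between 363 and 887 and those of endothelial cells to between 3447 and 9344 normalized counts. Most of the endothelial sum came from *Vwf* and *Kdr*. On stimulation of *Ncoa6*-sufficient BMDMs, mean *Vwf* went from 3074 to 2048 and mean *Kdr* from 586 to 6446. With medium alone, the group means of *Pecam1*, *Cdh5* and *Tie1* were at most 24.1. *Lyz2*, the Cre driver locus, was lower in every *Ncoa6*-KO library (111994 to 129385) than in any *Ncoa6*-sufficient library (209893 to 272098). Without *Lyz2*, the macrophage markers summed to between 176118 and 179478 in unstimulated *Ncoa6*-sufficient and between 136641 and 159461 in unstimulated *Ncoa6*-KO BMDMs. With LPS + MSU they summed to between 267383 and 273541 in *Ncoa6*-sufficient and between 235261 and 250705 in *Ncoa6*-KO BMDMs. Stromal markers were low but uneven in *Ncoa6*-KO BMDMs, with 131 and 446 normalized counts in the unstimulated libraries and 216 and 711 in the stimulated ones.

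*Ncoa1* (SRC-1), *Ncoa2* (TIF2 or GRIP1) and *Ncoa3* (SRC-3) form the p160 family, and their proteins touch receptors through LxxLL motifs, in which L is leucine and x any residue. A translated search of the longest complete coding sequence in GENCODE found 7 such motifs in *Ncoa1*, 4 in *Ncoa2*, 6 in *Ncoa3*, 2 in *Ncoa6*, 1 in *Ncoa5* and 1 in *Ncor1*, and 0 in *Ncoa4* and *Ncoa7*. In each p160 gene, 3 of the motifs lie in a single exon, exon 9 of *Ncoa1*, exon 11 of *Ncoa2* and exon 12 of *Ncoa3*. The translated p160 sequences were 46.0% identical between *Ncoa2* and *Ncoa3*, 39.5% between *Ncoa1* and *Ncoa2* and 36.8% between *Ncoa1* and *Ncoa3*. Identity was counted over the shorter sequence of each pair. By this measure *Ncoa5* and *Ncor1*, which are not p160 genes, were 37.1% identical, above *Ncoa1* and *Ncoa3*. All other pairs with a gene outside the p160 family were below every p160 pair, with 34.1% for *Ncoa4* and *Ncor1* the next highest. The measure thus did not set *Ncoa1* and *Ncoa3* apart from every pair outside the family. The coding DNA of these motifs and of the 2 in *Ncoa6* is shown because it is what the p160 genes and the deleted gene have in common. Coordinates are those of GRCm38, the genes lie on the reverse strand except *Ncoa3*, and capitals mark the 5 codons of the motif.
Ncoa1 codons 637 to 641, chr12:4295423-4295437: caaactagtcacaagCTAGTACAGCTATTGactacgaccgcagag
Ncoa1 codons 694 to 698, chr12:4295252-4295266: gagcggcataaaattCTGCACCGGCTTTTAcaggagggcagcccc
Ncoa1 codons 755 to 759, chr12:4295069-4295083: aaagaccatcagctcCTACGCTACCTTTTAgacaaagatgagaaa
Ncoa2 codons 641 to 645, chr1:13174538-13174552: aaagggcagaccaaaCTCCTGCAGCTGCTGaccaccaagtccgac
Ncoa2 codons 690 to 694, chr1:13174391-13174405: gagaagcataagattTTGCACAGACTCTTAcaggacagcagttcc
Ncoa2 codons 745 to 749, chr1:13174226-13174240: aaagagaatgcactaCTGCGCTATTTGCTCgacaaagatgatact
Ncoa3 codons 613 to 617, chr2:166055127-166055141: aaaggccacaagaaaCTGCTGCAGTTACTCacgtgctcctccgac
Ncoa3 codons 677 to 681, chr2:166055319-166055333: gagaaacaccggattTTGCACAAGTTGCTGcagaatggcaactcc
Ncoa3 codons 729 to 733, chr2:166055475-166055489: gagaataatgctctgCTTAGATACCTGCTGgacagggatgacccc
Ncoa6 codons 893 to 897, chr2:155414931-155414945: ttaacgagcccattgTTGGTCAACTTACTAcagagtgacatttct
Ncoa6 codons 1497 to 1501, chr2:155406880-155406894: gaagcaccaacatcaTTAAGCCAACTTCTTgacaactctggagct

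*Ncoa6* (ENSMUSG00000038369), the targeted gene, encodes a large coactivator that joins nuclear receptors to histone methyltransferase complexes. It lies on chromosome 2 of GRCm38, from 155390656 to 155473894 on the reverse strand. The mice were made with loxP sites around exon 7, whose coordinates the sources used here do not give. In GENCODE, exon 7 of the first listed transcript, Ncoa6-201, is chr2:155418878-155419024. Exon 7 of Ncoa6-203, whose codons are numbered above, is another stretch, chr2:155422811-155422939, of 129 bases. The exon of Ncoa6-201 holds 147 bases, all coding, which is 2.14% of the 6872 bases of Ncoa6-201, and the coding sequence without it has 0 stop codons before the end. No LxxLL motif lies in it. It is shown as the candidate that the numbering of Ncoa6-201 gives, and which exon the study's numbering means was not settled.
Exon 7 of Ncoa6-201: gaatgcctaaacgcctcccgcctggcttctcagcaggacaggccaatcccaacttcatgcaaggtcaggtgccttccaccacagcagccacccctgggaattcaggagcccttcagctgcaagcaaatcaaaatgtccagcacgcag

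*Ncoa6* stood at 1515 and 1405 normalized counts in unstimulated *Ncoa6*-sufficient BMDMs and at 784 and 622 in their *Ncoa6*-KO counterparts. With LPS + MSU, the values were 1297 and 1173 against 563 and 526. The genotypes did not overlap in either culture. The log2 fold change was -1.05 with medium alone (standard error 0.117, edgeR adjusted p = 0.00236) and -1.18 with LPS + MSU (standard error 0.124, edgeR adjusted p = 0.00189). The counts cover the whole gene, so reads from transcripts that lack a single exon are still counted, and in bulk RNA fewer cells with the gene and less RNA per cell cannot be told apart. Without replicate 1 of the unstimulated *Ncoa6*-sufficient libraries, the change with medium alone was -0.996 and lost its call (edgeR adjusted p = 0.0578).

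In the family, as over all tested genes, fewer differences were called between genotypes than on stimulation. In *Ncoa6*-KO against *Ncoa6*-sufficient BMDMs with medium alone, 1 of the 8 genes passed an adjusted p of 0.05 (Benjamini-Hochberg), *Ncoa6* itself, where 1.88% of all tested genes were called. With LPS + MSU, 2 of 8 were called, *Ncoa6* lower and *Ncoa2* higher, where 3.59% of all genes were. Libraries of the genotypes did not overlap for 3 of the 8 genes with medium alone and for 5 with LPS + MSU, against 43.1% and 47.4% of all tested genes. LPS + MSU against medium alone called 7 of 8 in *Ncoa6*-sufficient BMDMs (55.2% of all genes), with 4 higher and 3 lower (24.7% and 30.5% of all genes). In *Ncoa6*-KO BMDMs it called all 8 (53.1%), with 4 higher and 4 lower (25.2% and 27.9%). The libraries of both cultures were apart for all 8 genes in each genotype, as they were for 78.5% and 76.5% of all genes. With more tested genes called than not on stimulation, the count of members called is no result by itself, and the sizes and directions are given gene by gene.

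**Figure D1:**
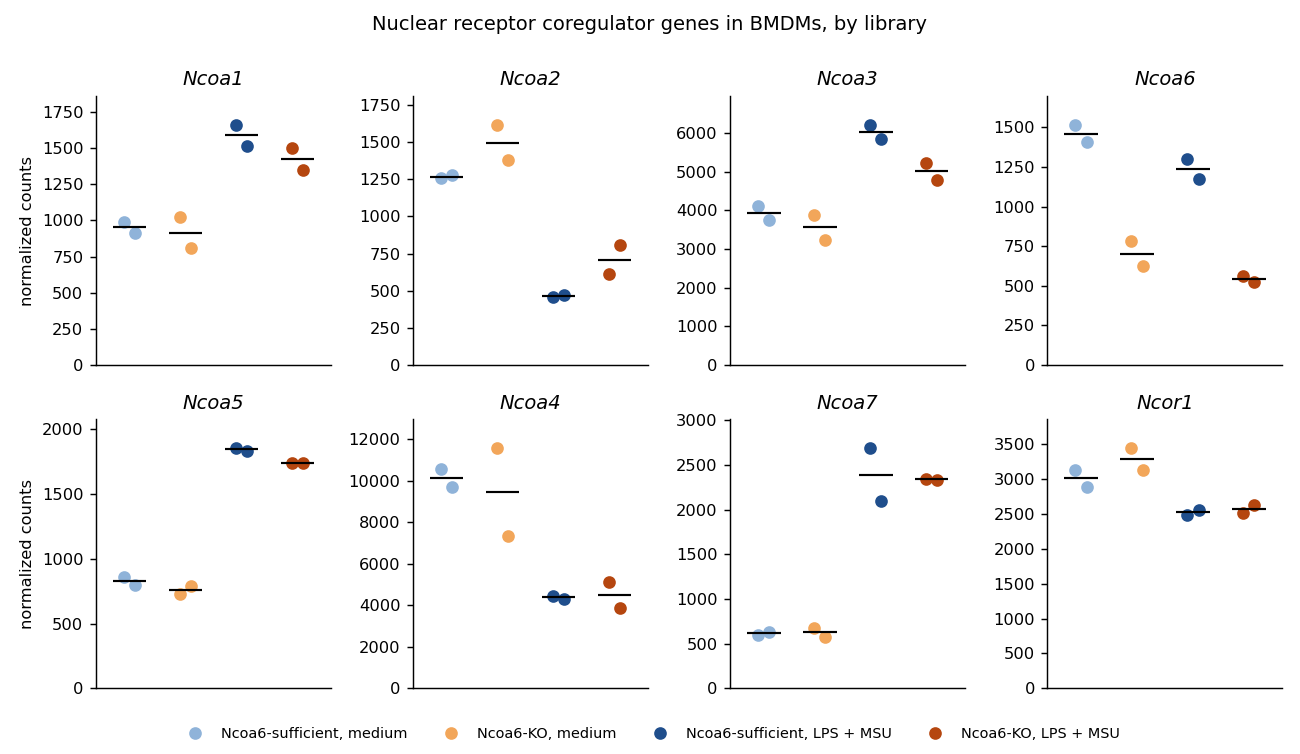
Normalized counts of the 8 genes, 1 panel for each gene, each axis starting at 0. Each point is 1 library, the colours are the 4 groups of genotype and culture, and the bar is the mean of 2 libraries. The genotypes are apart in both cultures for *Ncoa6*, *Ncoa2* and *Ncoa5*, with the largest difference for *Ncoa6*. The cultures are apart for all 8 genes in each genotype, with the largest changes for *Ncoa7*, *Ncoa2*, *Ncoa4* and *Ncoa5*.

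*Ncoa2* (ENSMUSG00000005886, chr1:13139105-13374083) was the only relative of *Ncoa6* called between genotypes. Its protein serves the glucocorticoid receptor both as a coactivator and, at some inflammatory genes of macrophages, in repression. With LPS + MSU, *Ncoa2* stood at 456 and 472 normalized counts in *Ncoa6*-sufficient and at 613 and 806 in *Ncoa6*-KO BMDMs. Both knockout libraries were higher than both sufficient ones, with a wider gap between the knockout libraries than between the sufficient ones. The log2 fold change was 0.61 (95% interval 0.31 to 0.91, edgeR adjusted p = 0.0370), a 1.53-fold higher level. With medium alone the values were 1255 and 1281 against 1615 and 1376, again without overlap, but the log2 fold change of 0.24 (95% interval -0.03 to 0.51, edgeR adjusted p = 0.474) was not called.

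The call of *Ncoa2* with LPS + MSU rests on few libraries. It was lost with limma-voom (limma adjusted p = 0.0720), in a fit of only the 4 libraries compared (edgeR adjusted p = 0.0746) and, in edgeR, without any of 5 libraries in turn. These were either *Ncoa6*-sufficient library of either culture (adjusted p between 0.0736 and 0.243, log2 fold changes from 0.57 to 0.62) and replicate 2 of the *Ncoa6*-KO libraries with LPS + MSU (log2 fold change 0.40, adjusted p = 0.282). It was kept with DESeq2 (0.57, adjusted p = 0.0146). That same knockout library, replicate 2, also held more stromal markers than replicate 1, 711 against 216 normalized counts. The *Ncoa6*-sufficient libraries with LPS + MSU held 837 and 774. With medium alone, replicates 1 and 2 of the knockout held 131 and 446, beside *Ncoa2* at 1615 and 1376. The part of stromal cells in the *Ncoa2* values was not tested.

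*Ncoa2* fell on stimulation in each genotype. It went from 1255 and 1281 to 456 and 472 normalized counts in *Ncoa6*-sufficient BMDMs, which left 36.6% (log2 fold change -1.45, standard error 0.134, edgeR adjusted p = 3.13e-06). In the knockout BMDMs it went from 1615 and 1376 to 613 and 806, which left 47.4% (-1.08, standard error 0.129, edgeR adjusted p = 2.9e-05). The difference between the genotypes in this fall, tested as an interaction, was 0.37 on the log2 scale (95% interval -0.04 to 0.78, edgeR adjusted p = 0.857, unadjusted p = 0.0699). A difference of *Ncoa2* between genotypes with LPS + MSU but not with medium alone was thus not shown.

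The other p160 genes went the opposite way on stimulation. *Ncoa1* (ENSMUSG00000020647, chr12:4247362-4477182), the founding p160 coactivator, stood at 989 and 914 normalized counts with medium alone and at 1660 and 1516 with LPS + MSU in *Ncoa6*-sufficient BMDMs. In *Ncoa6*-KO BMDMs it stood at 1020 and 809 and then at 1502 and 1346. All stimulated libraries were higher than all unstimulated ones, by log2 fold changes of 0.74 (standard error 0.12, edgeR adjusted p = 0.000288) and 0.64 (standard error 0.12, edgeR adjusted p = 0.0009).

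*Ncoa3* (ENSMUSG00000027678, chr2:165992636-166073242), the p160 gene amplified in some breast tumours, had the highest level per kilobase of exon of the p160 genes. It rose from 4099 and 3745 normalized counts to 6208 and 5854 in *Ncoa6*-sufficient BMDMs (log2 fold change 0.62, standard error 0.111, edgeR adjusted p = 0.000573). In the knockout BMDMs it rose from 3889 and 3243 to 5228 and 4782 (0.49, standard error 0.111, edgeR adjusted p = 0.00312). The rise in each genotype was larger than the spread between libraries. Between genotypes, *Ncoa3* with LPS + MSU was lower in both knockout libraries than in both sufficient ones, with a log2 fold change of -0.27 (95% interval -0.51 to -0.02). Its unadjusted p was 0.0339 and its edgeR adjusted p 0.237, so it was not called. For *Ncoa1*, the change between genotypes was -0.06 with medium alone (95% interval -0.32 to 0.21) and -0.16 with LPS + MSU (95% interval -0.42 to 0.11).

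To compare levels between genes, normalized counts were divided by the length of the union of each gene's exons. On this scale *Ncoa3* made up 72.1% ± 0.762 (SD, n = 2) of the summed level of the 3 p160 genes in *Ncoa6*-sufficient BMDMs with medium alone, *Ncoa1* 16.1% ± 0.0369 and *Ncoa2* 11.8% ± 0.798. With LPS + MSU the share of *Ncoa2* was 3.04% ± 0.209, and that of *Ncoa3* 78.1% ± 0.173. In *Ncoa6*-KO BMDMs the share of *Ncoa2* was 14.6% ± 0.275 before and 5.40% ± 1.31 after stimulation. The share of *Ncoa2* was lower in every stimulated library than in any unstimulated one, and higher in the knockout than in the sufficient libraries of the same culture. The summed level was 689 ± 36.7 normalized counts per kilobase with medium alone and 979 ± 42.8 with LPS + MSU in *Ncoa6*-sufficient BMDMs, and 654 ± 86.1 and 845 ± 44.0 in *Ncoa6*-KO BMDMs. With the longest transcript in place of all exons, the *Ncoa2* shares were higher, 19.3% and 5.29% in *Ncoa6*-sufficient and 23.5% and 9.23% in *Ncoa6*-KO BMDMs.

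**Figure D2:**
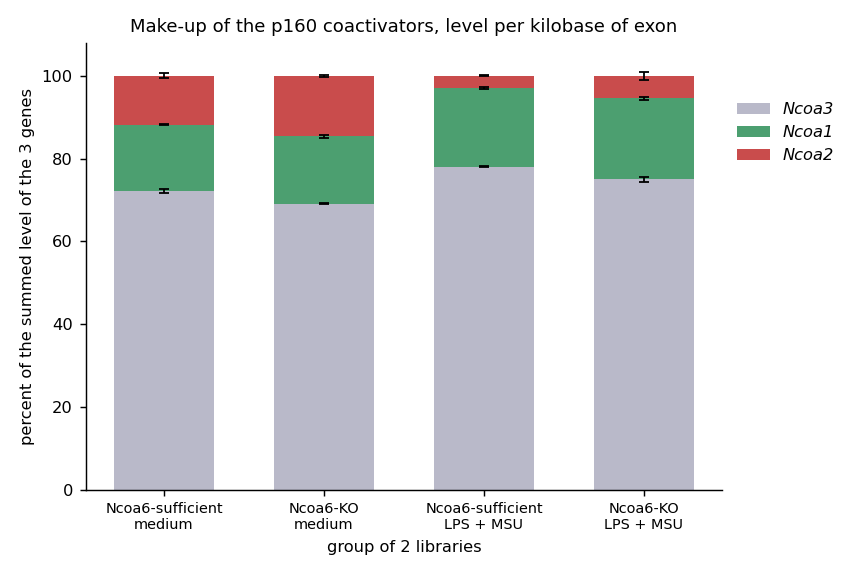
Share of *Ncoa1*, *Ncoa2* and *Ncoa3* in their summed level per kilobase of exon, in percent, as stacked bars from 0 with the mean of 2 libraries in each group. Error bars show the lowest and highest library. *Ncoa2* shrinks from 11.8% to 3.04% in *Ncoa6*-sufficient and from 14.6% to 5.40% in *Ncoa6*-KO BMDMs.

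*Ncoa5* (ENSMUSG00000039804, chr2:165000357-165034867), which encodes a smaller coregulator with 1 LxxLL motif that can act with estrogen receptors in activation or repression, rose on stimulation with little spread. It stood at 863 and 798 normalized counts in *Ncoa6*-sufficient BMDMs with medium alone and at 1854 and 1834 with LPS + MSU. In the knockout BMDMs it stood at 732 and 792 and then at 1739 and 1740. The stimulated libraries were well above the unstimulated ones in each genotype. The rise was 2.22-fold (log2 fold change 1.15, standard error 0.0887, edgeR adjusted p = 7.13e-07) and 2.28-fold (1.19, standard error 0.0891, edgeR adjusted p = 5.9e-07). Between genotypes the log2 fold changes were -0.13 (95% interval -0.32 to 0.07) and -0.08 (95% interval -0.28 to 0.11), which did not pass the test although the knockout libraries were the lower in each culture.

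*Ncoa4* (ENSMUSG00000056234, chr14:32159865-32179855), the ferritin receptor, had the highest level per kilobase of exon in the family with medium alone and fell on stimulation. In *Ncoa6*-sufficient BMDMs it went from 10544 and 9682 normalized counts to 4462 and 4316 (log2 fold change -1.20, standard error 0.193, edgeR adjusted p = 0.000254). In *Ncoa6*-KO BMDMs it went from 11556 and 7319 to 5110 and 3878 (-1.07, standard error 0.192, edgeR adjusted p = 0.000635). No stimulated library overlapped with an unstimulated one. The 2 knockout libraries with medium alone lay far apart, on either side of both sufficient libraries. The change between genotypes was therefore loosely set, at -0.10 with medium alone (95% interval -0.52 to 0.32) and 0.03 with LPS + MSU (95% interval -0.39 to 0.46, and -0.00151 with DESeq2 size factors in edgeR).

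Other iron-handling genes were taken from a list of 5, made of ferritin subunits, *Herc2*, the transferrin receptor *Tfrc* and the iron exporter *Slc40a1*. On stimulation in *Ncoa6*-sufficient BMDMs, 1 rose and 3 fell (24.7% and 30.5% of all tested genes did). *Slc40a1* had a log2 fold change of -3.88 (edgeR adjusted p = 1.07e-08), and *Fth1*, the ferritin heavy chain, was higher by 0.61 (edgeR adjusted p = 0.00183). The other ferritin gene of the list, *Ftl1*, went the opposite way, by -0.43 (edgeR adjusted p = 0.0168), and *Tfrc* changed by -0.25 (edgeR adjusted p = 0.0468). In the knockout BMDMs, 1 rose and 2 fell (25.2% and 27.9% of all genes), led by *Slc40a1* with a log2 fold change of -3.12 (edgeR adjusted p = 3.7e-08). Between genotypes, *Tfrc*, which takes up iron, was higher in *Ncoa6*-KO BMDMs by 0.68 with medium alone (edgeR adjusted p = 0.00814) and by 0.55 with LPS + MSU (edgeR adjusted p = 0.0147). *Slc40a1* was higher in *Ncoa6*-KO BMDMs by 1.02 with LPS + MSU (edgeR adjusted p = 0.0103). *Ncoa4*, as given above, was not called between genotypes.

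*Ncoa7* (ENSMUSG00000039697, chr10:30628999-30803326) rose more than any other gene of the family. It stood at 601 and 630 normalized counts in *Ncoa6*-sufficient BMDMs with medium alone and at 2688 and 2097 with LPS + MSU. In *Ncoa6*-KO BMDMs it stood at 676 and 574 and then at 2347 and 2336. Every stimulated library was more than 3-fold above every unstimulated one. The log2 fold change was 1.96 (standard error 0.127, edgeR adjusted p = 1.78e-07), a 3.89-fold rise, in *Ncoa6*-sufficient and 1.90 (standard error 0.127, edgeR adjusted p = 2.37e-07), a 3.74-fold rise, in *Ncoa6*-KO BMDMs. The genotypes overlapped in both cultures, with log2 fold changes of 0.03 (95% interval -0.25 to 0.31) and -0.03 (95% interval -0.30 to 0.24). Of 4 other genes listed for a TLDc domain, 2 were tested, while *Tldc2* did not pass the filter and *Meak7* was not matched by symbol. *Oxr1* fell by 0.74 and 0.80 and *Tbc1d24* by 1.72 and 1.46 on the log2 scale in *Ncoa6*-sufficient and *Ncoa6*-KO BMDMs (all with edgeR adjusted p of 1.62e-05 or below).

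The counts of *Ncoa7* do not tell its transcripts apart. In mouse and man a short form with the TLDc domain, made from a start inside the gene, is known to answer to interferon. In GENCODE, 6 of 12 *Ncoa7* transcripts start within 100 bases of an internal RefSeq start site, 147459 bases into the gene, and 5 of these have a complete coding sequence, of 159 to 221 codons. The longest complete form has 943 codons. RefSeq promoters of GRCm38.p6, from 250 bases before to 50 after a start site, were searched on both strands for the interferon-stimulated response element (GAAA, any 2 bases, GAAA), the AP-1 motif TGANTCA and the κB motif. The first was found in 2 of 10 promoters of the family and in 3.44% of all 32851 promoters, the second in 0 of 10 and 7.81%, and the third in 2 of 10 and 8.46%. A match of the response element at the internal start of *Ncoa7* begins 7 bases after the start base, and its other match lies in a promoter of *Ncoa4*. The κB matches lie in a promoter of *Ncor1* and in that same promoter of *Ncoa4*. The 30 bases around the match in *Ncoa7* are shown because *Ncoa7* had the largest rise, with the matching letters in capitals.
Ncoa7 internal start, reverse strand, chr10:30655841-30655870: ctccttgaggGAAACAGAAActcaatcttg

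*Ncor1* (ENSMUSG00000018501, chr11:62316426-62458541) encodes NCoR, the corepressor of the family. It stood at 3136 and 2891 normalized counts in *Ncoa6*-sufficient BMDMs with medium alone and at 2490 and 2564 with LPS + MSU. In the knockout BMDMs it stood at 3443 and 3128 and then at 2517 and 2635. All stimulated libraries were below all unstimulated ones, but by less than for *Ncoa2* or *Ncoa4*. The log2 fold change was -0.25 (standard error 0.0922, edgeR adjusted p = 0.0360) in *Ncoa6*-sufficient and -0.35 (standard error 0.0921, edgeR adjusted p = 0.00737) in *Ncoa6*-KO BMDMs. Between genotypes it was 0.12 with medium alone (95% interval -0.08 to 0.33) and 0.03 with LPS + MSU (95% interval -0.18 to 0.23, and -0.00977 with DESeq2 size factors in edgeR).

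Small changes on stimulation moved with the scaling. DESeq2 size factors in edgeR shifted the median gene by 0.11 on the log2 scale in *Ncoa6*-sufficient and by 0.06 in *Ncoa6*-KO BMDMs. With them the log2 fold change of *Ncor1* was -0.14 in *Ncoa6*-sufficient BMDMs (edgeR adjusted p = 0.210), which lost its call, and -0.29 in *Ncoa6*-KO BMDMs (edgeR adjusted p = 0.0177). The call of *Ncor1* in *Ncoa6*-sufficient BMDMs was also lost without replicate 1 with medium alone, without either *Ncoa6*-sufficient library with LPS + MSU and without either *Ncoa6*-KO library with LPS + MSU, with log2 fold changes from -0.23 to -0.19, as well as with DESeq2 (-0.14), a stricter filter (-0.22) and only the compared libraries (-0.20). *Ncoa6* itself had a log2 fold change on stimulation of -0.24 in *Ncoa6*-sufficient (edgeR adjusted p = 0.102) and of -0.37 in *Ncoa6*-KO BMDMs (edgeR adjusted p = 0.0255). With DESeq2 size factors these were -0.13 (edgeR adjusted p = 0.377) and -0.31 (edgeR adjusted p = 0.0531). The call in *Ncoa6*-KO BMDMs was lost as well with DESeq2 (-0.31) and only the compared libraries (-0.36), without replicate 1 of the *Ncoa6*-KO libraries with medium alone (-0.19) and without either *Ncoa6*-KO library with LPS + MSU (-0.43 and -0.32).

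**Figure D3:**
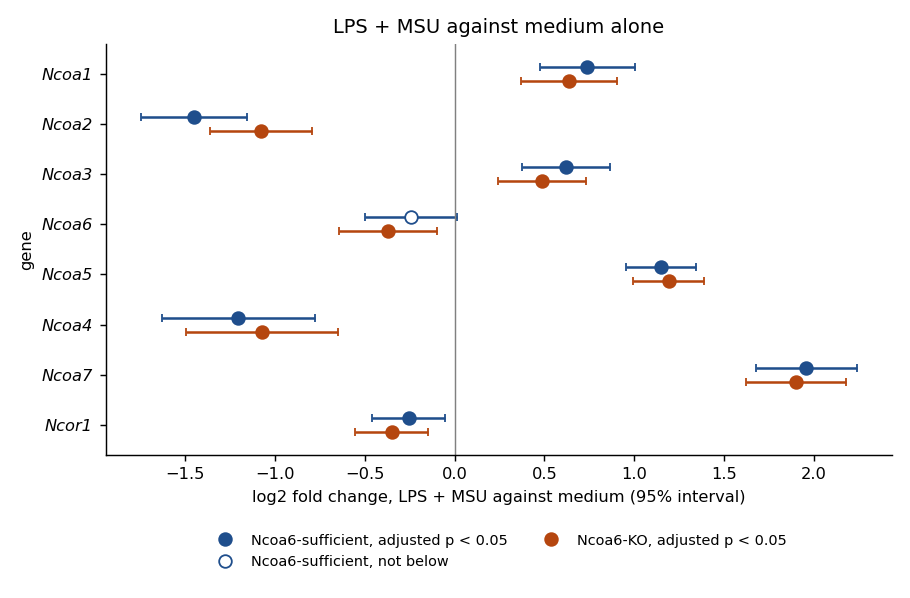
Log2 fold change of each gene with LPS + MSU against medium alone on the horizontal axis, with its 95% interval, in *Ncoa6*-sufficient and *Ncoa6*-KO BMDMs (2 against 2 libraries each). Filled points had an edgeR adjusted p under 0.05. The order runs from -1.45 for *Ncoa2* to 1.96 for *Ncoa7*, and the intervals of both genotypes overlap for every gene.

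Subunits of the NCoR complex and other corepressors were read together, from a list of 10 genes. On stimulation 3 rose and 6 fell in *Ncoa6*-sufficient BMDMs, beside 24.7% and 30.5% of all tested genes. For *Ncoa6*-KO BMDMs, 3 rose and 5 fell, beside 25.2% and 27.9%. The medians were -0.32 and -0.26 on the log2 scale beside -0.12 and -0.07 over all tested genes. *Sin3a*, the scaffold of another deacetylase complex, fell from 1394 ± 80.6 to 449.6 ± 6.78 normalized counts (SD, n = 2) in the *Ncoa6*-sufficient group and from 1385 ± 15.8 to 497 ± 65.04 in *Ncoa6*-KO BMDMs. Its log2 fold changes were -1.63 and -1.48 (edgeR adjusted p = 2.03e-07 and 4.41e-07). *Lcor*, a ligand-dependent corepressor, changed by 1.4 and 0.94 (edgeR adjusted p of 0.000422 or below), and *Tbl1xr1*, a subunit of the NCoR complex, by -1.32 and -1.09 (edgeR adjusted p of 6.53e-06 or below). *Tbl1x*, its paralogue in the same complex, went the other way, by 1.06 and 0.91 (edgeR adjusted p of 1.3e-05 or below). *Hdac3* and *Gps2*, also of that complex, changed by -0.28 and -0.36 in *Ncoa6*-sufficient BMDMs (edgeR adjusted p = 0.0143 and 0.00471). In *Ncoa6*-KO BMDMs *Hdac3* was not called, at -0.21 (edgeR adjusted p = 0.0557), and *Gps2* changed by -0.32 (edgeR adjusted p = 0.0114). *Nr0b2*, an orphan receptor that represses others, had 25 counts over both unstimulated *Ncoa6*-sufficient libraries and 0 over the stimulated ones, which is at least 4.84-fold lower against a floor of 3 counts over the group. In *Ncoa6*-KO BMDMs the counts were 16 and 0, at least 3.06-fold lower. With *Nr0b2* at these bounds the medians stayed at -0.32 and -0.26. *Cir1*, which encodes a corepressor of the Notch pathway, changed by -1.4 and -1.09 (edgeR adjusted p of 3.93e-05 or below).

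Other coactivators were read from a list of 13, of which *Ppargc1a* did not pass the filter. On stimulation 5 of 12 rose and 3 fell in *Ncoa6*-sufficient BMDMs, where 24.7% of all tested genes were higher and 30.5% lower. In the knockout BMDMs 4 rose and 3 fell, beside 25.2% and 27.9% of all genes. *Ppargc1b*, a coactivator of mitochondrial genes, rose from 31.8 ± 2.49 to 137 ± 19.1 normalized counts (SD, n = 2) in the *Ncoa6*-sufficient group and from 33.1 ± 1.60 to 110 ± 3.30 in *Ncoa6*-KO BMDMs. *Tgs1*, whose protein was found as a partner of NCOA6, changed by 1.72 and 1.76 on the log2 scale, the acetyltransferase gene *Kat2b* by 1.65 and 1.51, and the Mediator subunit gene *Med1* by 1.22 and 1.18 (all with edgeR adjusted p of 4.68e-05 or below). The acetyltransferase genes *Crebbp* and *Ep300* were not called, with log2 fold changes of 0.19 and 0.15 in *Ncoa6*-sufficient BMDMs.

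**Figure D4:**
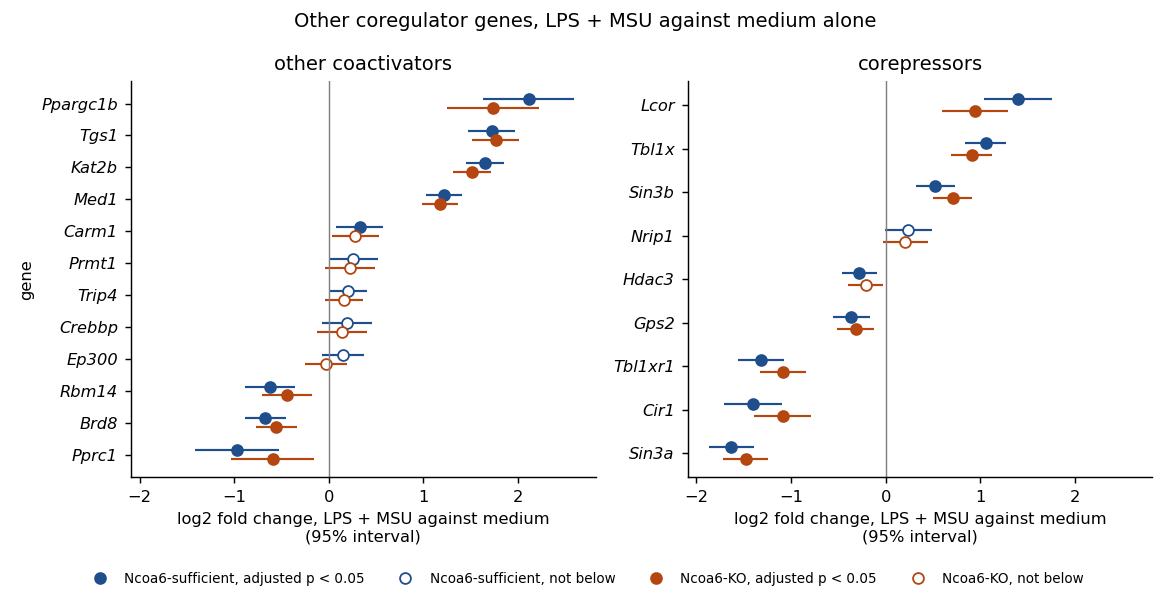
Log2 fold change with LPS + MSU against medium alone on the horizontal axis, with 95% intervals, for 12 other coactivator genes and 9 corepressor genes, in *Ncoa6*-sufficient and *Ncoa6*-KO BMDMs (2 against 2 libraries each). *Nr0b2*, at 0 counts after stimulation, is left out. Filled points had an edgeR adjusted p under 0.05, and changes run from -1.63 for *Sin3a* to 2.11 for *Ppargc1b*.

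Between genotypes, 0 of the 12 tested coactivator genes and 0 of the 10 corepressor genes were called by edgeR in either culture. Of all tested genes, 1.88% were called with medium alone and 3.59% with LPS + MSU, so these counts are no result by themselves. With medium alone the coactivators lay between -0.28 and 0.13, and with LPS + MSU between -0.32 and 0.29. The corepressors without *Nr0b2* ran from -0.18 to 0.26 and from -0.20 to 0.35. Of 6 measured genes near *Ncoa6* on chromosome 2, 0 were called with medium alone and 1 with LPS + MSU, beside the same shares of all genes. The 1 called was *Map1lc3a*, an autophagy gene, which was higher in *Ncoa6*-KO BMDMs by 0.76 (edgeR adjusted p = 0.0422).

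**Figure D5:**
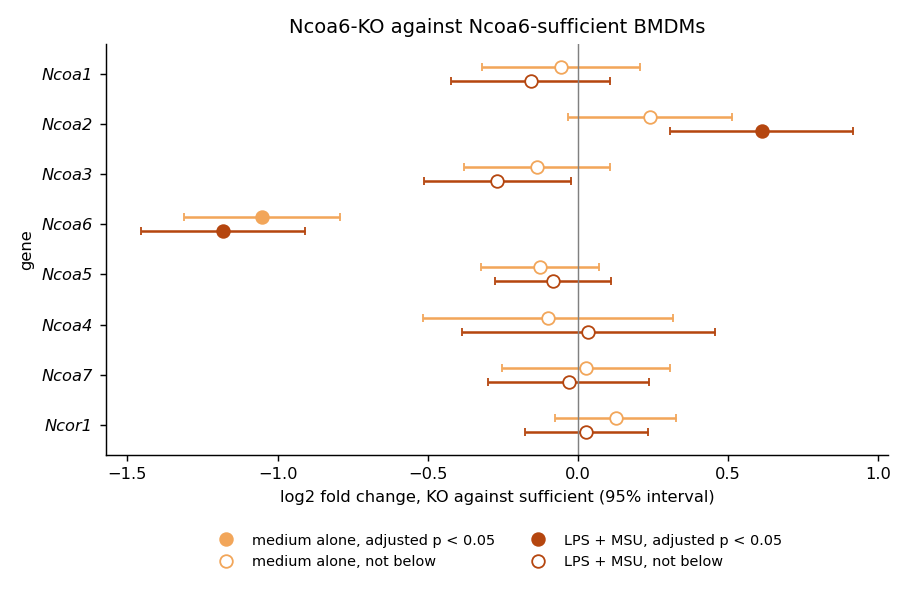
Log2 fold change of each gene in *Ncoa6*-KO against *Ncoa6*-sufficient BMDMs on the horizontal axis, with its 95% interval, with medium alone and with LPS + MSU (2 against 2 libraries each). Filled points had an edgeR adjusted p under 0.05. Besides *Ncoa6*, at -1.05 and -1.18, the only filled point is *Ncoa2* with LPS + MSU, at 0.61.

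Whether the response to LPS + MSU differed between genotypes was tested as an interaction. By edgeR, 0 of the 8 genes were called (0% of all 17625 genes), and 0 had an unadjusted p under 0.05, where 1045 of all genes did. DESeq2 called 43 genes in all and limma-voom 0, and neither called any of the 8. Besides *Ncoa2*, the log2 differences ran from -0.13 for *Ncoa3* (95% interval -0.48 to 0.21) to 0.13 for *Ncoa4* (95% interval -0.46 to 0.73). With intervals of this width, smaller differences between genotypes in the response were not detectable with 2 libraries in each group.

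The order of the genes by level changed with stimulation. Per kilobase of exon, the order in *Ncoa6*-sufficient BMDMs with medium alone was *Ncoa4*, *Ncoa3*, *Ncor1*, *Ncoa5*, *Ncoa6*, *Ncoa1*, *Ncoa2* and *Ncoa7*, from 1080 ± 65.1 down to 58.3 ± 1.91 normalized counts per kilobase (SD, n = 2), and 0 of 7 neighbouring pairs overlapped. With LPS + MSU it was *Ncoa3*, *Ncoa4*, *Ncoa5*, *Ncoa7*, *Ncor1*, *Ncoa1*, *Ncoa6* and *Ncoa2*, from 764 ± 31.7 to 29.7 ± 0.749, with *Ncoa7* and *Ncor1* overlapping. In unstimulated *Ncoa6*-KO BMDMs, *Ncoa6* was second to last at 72.1 ± 11.8 and overlapped with *Ncoa7* at 59.2 ± 6.84, and *Ncoa1* overlapped with *Ncoa2*. With LPS + MSU, *Ncoa6* stood at 55.9 ± 2.7 and *Ncoa2* at 45.4 ± 8.72, without overlap. With the longest transcript as the length, 2 of 8 places changed in each of the first 3 groups and 4 in the last, where *Ncoa6* was then the lowest, at 76.7, and *Ncoa2* next, at 86.8.

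Some exons are shared with other genes. *Ncoa3* shares 154 exonic bases with *Sulf2* on the other strand, *Ncoa7* 78 with *Hint3* on the same strand and *Ncor1* 82 with *Pigl* on the other strand, of 7895, 10565 and 12811 exonic bases. The genes whose pattern over the 8 libraries was most like that of *Ncoa6*, among 11219 genes averaging 50 normalized counts or more, were *Icam2*, *Arhgap4* and *Pld4*, with root mean square differences of centred log2 levels of 0.186, 0.190 and 0.204. For *Ncoa7* they were *Xrn1*, *Tmem184b* and *Nsd3*, at 0.0951, 0.0955 and 0.0976.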

How the data were processed

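RNA of 8 BMDM libraries was sequenced from stranded, poly(A)-selected libraries. The authors aligned the paired reads to GRCm38 with STAR 2.7.3a and deposited expected counts per gene from RSEM 1.3.3, of which 8.95% were not whole, and they were rounded here. Genes with fewer than 10 counts over all libraries were left out. One edgeR 4.0.16 quasi-likelihood fit (R 4.3.3, TMM scaling) with the 4 groups gave both genotype contrasts, both stimulation contrasts and their interaction, each adjusted by Benjamini-Hochberg over 17625 genes, with 4 residual degrees of freedom. An exact permutation test of 2 against 2 libraries cannot go below p = 0.333. The fit was tested on simulated data. Alternatives were DESeq2 1.42.0 and its size factors, limma-voom (limma 3.58.1), other filters, only the compared libraries, a replicate block and leaving out each library. The 8 genes and the lists were chosen with earlier results of these data known. Every member was named, and up to 4 called genes of each list and comparison, by size of change. *Crebbp*, *Ep300*, *Nr0b2*, *Tbl1x*, *Hdac3* and *Gps2* were added after their values were seen. Exons and coding sequences came from GENCODE M21 and promoters from RefSeq, which had 10 of these genes' promoters and none of *Ncoa2* or *Ncoa3*. 1 corepressor gene is not reported here and was left out of its list.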

Additional observations from a re-analysis of the deposited data

How the results depend on the processing

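Under settings other than leaving out a library, 279 of 296 results of the 8 genes kept direction and call, 9 lost a call, 2 gained one and 6 reversed, and the cause was not tested. The reversals were of uncalled values, with DESeq2 and with DESeq2 size factors in edgeR: *Ncoa4* in knockout with LPS + MSU (-0.00159 and -0.00151), *Ncor1* there (-0.00978 and -0.00977) and the interaction of *Ncoa5* (-0.0133 and -0.0135). The number called among the 8 with LPS + MSU between genotypes was 1 with limma-voom and with only the compared libraries. With 1 library left out, its group holds 1 sample, assumed to vary like the others, which kept 283 of 320 results. The counts called then ran from 0 to 1 and from 1 to 2 between genotypes with medium alone and LPS + MSU, from 6 to 7 and from 7 to 8 for stimulation in *Ncoa6*-sufficient and *Ncoa6*-KO BMDMs, and stayed at 0 for the interaction. Uncalled changes that reversed between genotypes ran, with medium alone, from -0.23 to 0.10 for *Ncoa1*, from -0.47 to 0.19 for *Ncoa4* and from -0.10 to 0.14 for *Ncoa7*, and with LPS + MSU from -0.20 to 0.22 for *Ncoa4*, from -0.21 to 0.15 for *Ncoa7* and from -0.00915 to 0.0427 for *Ncor1*. Interactions ran from -0.26 to 0.0767 for *Ncoa1*, -0.26 to 0.00399 for *Ncoa3*, -0.16 to 0.50 for *Ncoa4*, -0.0168 to 0.10 for *Ncoa5*, -0.28 to 0.0494 for *Ncoa6* and -0.27 to 0.0852 for *Ncoa7*. Over all genes, 331 calls with medium alone became 1152 without a filter, 1023 with the replicate block and 22 to 351 without a library. With LPS + MSU 632 became 1611, 1532, 347 with only the compared libraries and 49 to 765, and the 0 calls of the interaction became 43 with DESeq2, 269 without a filter, and 86 and 444 with a replicate block across groups and within genotype. Deviations of same-numbered libraries correlated at 0.283 and 0.353 within genotypes and at 0.0418 to 0.193 between other groups. The labels tie no number to a mouse or day and each group has 2 libraries, so the numbers were not taken as pairs, and whether they mark pairs is not known. With the replicate block *Ncoa2* with LPS + MSU kept its call (edgeR adjusted p = 0.00864), and the stimulation change of *Ncoa6* in *Ncoa6*-sufficient BMDMs gained one (0.0303 across groups, 0.0131 within genotype).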
